A study of Homo sapiens with 16 samples.

Results

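The keratin-associated protein genes were taken as the protein-coding genes of RefSeq (GRCh38) whose symbol starts with KRTAP, which gave 94 genes among 19970 protein-coding genes on chromosomes 1 to 22 and X. Keratin-associated proteins are small, unusually cysteine-rich or glycine- and tyrosine-rich proteins that fill the space between keratin filaments in the hair shaft and crosslink them through disulfide bonds. They are made late in differentiation by the cortex and cuticle cells of the hair follicle, and liver cells are not a known site of their expression. Their genes are short, mostly lack introns, and lie in dense arrays in which members of a family can be near-identical copies.

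The question put to these genes was where they stood with respect to Polycomb repressive complex 2. In that complex EZH2 is the enzyme that methylates a lysine of histone H3, H3K27me3 is the trimethylated product, and JARID2 is an accessory subunit that helps to bring the complex to chromatin. Chromatin immunoprecipitation with sequencing (ChIP-seq) was used in a pair of human liver lines, HepG2, derived from a hepatocellular carcinoma, and THLE-2, an immortalised epithelial line from non-tumour liver. The 16 samples comprised 8 immunoprecipitated libraries and 8 inputs of sheared chromatin. JARID2 was mapped in HepG2, and JARID2, EZH2 and H3K27me3 were mapped in THLE-2, with 2 libraries per group that the series calls biological replicates. Cells of all groups were grown without a named treatment and fixed in 1% formaldehyde for 10 minutes. Peak lists hold no expression values, so the identity of the lines was not checked against marker genes. HepG2 was profiled for JARID2 only. Targets were read from sample titles and antibody tags, since the protocol text names a JARID2 antibody for HepG2 JARID2 replicate 1 alone and describes the antibody of the others in general words.

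The libraries held 7945155 to 39047005 tags, and replicates were uneven in how many peaks MACS called. HepG2 JARID2 had 15738 peaks in replicate 1 and 4090 in replicate 2, although replicate 2 was sequenced more deeply. THLE-2 H3K27me3 had 46198 and 90524 peaks, THLE-2 JARID2 5356 and 5532, and THLE-2 EZH2 2112 and 3690. The median false discovery rate of a peak was 1.29% in HepG2 JARID2 replicate 1, between 15.8% and 44.2% in THLE-2 JARID2, and 100% in the other 5 lists, so single calls are weakly supported. For that reason counts are given per library beside those for both replicates.

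All 94 genes fell into 5 clusters that together spanned 1.41 Mb. The KRTAP5 family, which encodes ultrahigh-sulfur proteins, was split over both clusters of chromosome 11, with 6 genes (KRTAP5-1 to KRTAP5-6) at chr11:1584342-1697755 and 5 genes (KRTAP5-7 to KRTAP5-11) at chr11:71527267-71582875. The chromosome 17 cluster held 34 genes at chr17:40993430-41315710, from KRTAP3-3 to KRTAP17-1, inside the type I keratin locus. The first chromosome 21 cluster held 33 genes at chr21:30281309-31038476, from KRTAP24-1 to KRTAP19-8, and includes all the high glycine-tyrosine genes. The second held 16 genes of the high-sulfur KRTAP10 and KRTAP12 families at chr21:44538981-44698044, all of them lying inside the annotated span of TSPEAR, a gene for a secreted protein that is mutated in forms of ectodermal dysplasia. The genes had a median length of 828 bp (208 to 1643 bp), against 24434 bp for other protein-coding genes.

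Promoter sequences were at hand for 80 of the 94 genes, 26 on the plus and 54 on the minus strand, from RefSeq (GRCh38.p14). Among them, the 4 shown here were those whose promoter window overlapped a peak in the most libraries, with ties taken by fold enrichment. They let the reader see the kind of DNA that the H3K27me3 peaks of the next paragraphs cover. Each is the 250 bases before the annotated start, written 5′ to 3′ on the strand of the gene. Capitals mark each CpG (CG) and each TATAAA on the gene's strand.
KRTAP13-4: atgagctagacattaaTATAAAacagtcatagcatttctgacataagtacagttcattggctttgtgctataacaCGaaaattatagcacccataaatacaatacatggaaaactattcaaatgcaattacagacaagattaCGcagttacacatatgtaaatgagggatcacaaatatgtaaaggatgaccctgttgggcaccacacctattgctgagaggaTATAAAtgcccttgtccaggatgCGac
KRTAP5-9: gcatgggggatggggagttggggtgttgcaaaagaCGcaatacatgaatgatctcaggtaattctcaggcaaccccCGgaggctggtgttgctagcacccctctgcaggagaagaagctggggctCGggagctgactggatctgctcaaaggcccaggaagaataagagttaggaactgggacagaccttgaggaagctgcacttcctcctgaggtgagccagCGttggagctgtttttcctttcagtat
KRTAP24-1: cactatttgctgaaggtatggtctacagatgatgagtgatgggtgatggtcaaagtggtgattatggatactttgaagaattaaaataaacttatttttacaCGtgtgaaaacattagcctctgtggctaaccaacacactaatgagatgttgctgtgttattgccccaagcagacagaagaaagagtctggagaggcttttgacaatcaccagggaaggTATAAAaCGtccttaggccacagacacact
KRTAP10-12: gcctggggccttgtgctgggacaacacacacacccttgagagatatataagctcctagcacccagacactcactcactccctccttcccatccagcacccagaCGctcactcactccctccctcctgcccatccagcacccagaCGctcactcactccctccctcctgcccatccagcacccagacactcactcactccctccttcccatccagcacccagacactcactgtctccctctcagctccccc
The KRTAP13-4 window lies at chr21:30429970-30430219 on the plus strand and holds 3 CpG, 36.8% G and C, and TATAAA at 27 and at 234 bases before the start. The KRTAP5-9 window is at chr11:71548170-71548419 on the plus strand, with 4 CpG, 54.0% G and C and no TATAAA. The KRTAP24-1 window is at chr21:30282951-30283200 on the minus strand, with 2 CpG, 40.8% G and C and a TATAAA at 30 bases before the start. The KRTAP10-12 window is at chr21:44696922-44697171 on the plus strand, with 2 CpG, 60.8% G and C, no TATAAA and a visible tandem repeat of a short block rich in C. A match to TATAAA is a description of the letters and no evidence of a working TATA box.

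These windows were typical of the family in having few CpG. Over the 300 bases from 250 before to 50 after the start, the 80 KRTAP promoters held a median of 2.00 CpG (0 to 13), against 22 (0 to 69) in 15732 promoters of other protein-coding genes. All 80 were at or below that median of the other promoters, and 72 of them held at most 5 CpG, a level found in 19.1% of the other promoters. Their G and C content had a median of 42.7%, against 62.7%. TATAAA on the strand of the gene was present in 61 of 80 (76.2%), against 6.57% of other promoters, and on either strand in 64 of 80 (80.0%), against 9.28%. Its median position was 34.0 bases before the start in KRTAP promoters and 31.0 bases in the others that held it. The share with TATAAA on the gene's strand was 28 of 33 (84.8%) in the chromosome 17 cluster, 21 of 30 (70.0%) in the first and 11 of 15 (73.3%) in the second cluster of chromosome 21. Members of a family can be close copies, and the likeness of their promoters was not measured, so these promoters are not taken as independent of each other.

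**Figure D1:**
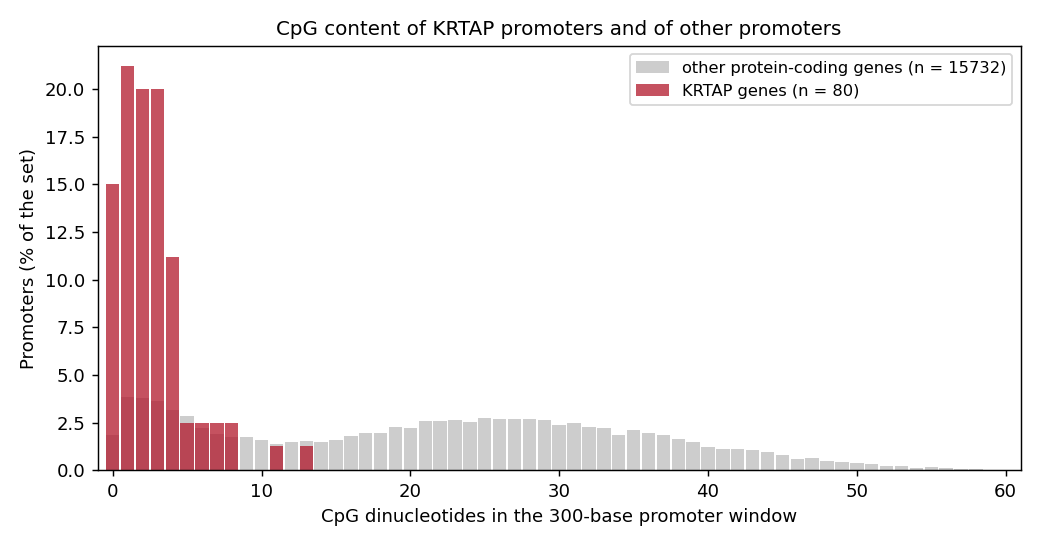
Share of promoters (vertical axis, % of each set) by the number of CpG dinucleotides in the 300-base window around the start (horizontal axis), for 80 KRTAP genes and 15732 other protein-coding genes. The KRTAP promoters end at 13 CpG with a median of 2.00, whereas the other promoters have a median of 22.

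Few KRTAP genes had a JARID2 or EZH2 peak. A gene was counted when a peak lay within 2 kb of either of its ends. In HepG2 JARID2, 0 of 94 KRTAP genes had such a peak in replicate 1, in which 22.5% of all protein-coding genes had one, and 0 of 94 in replicate 2, against 0.716% of all genes. In THLE-2 JARID2 the count was 1 of 94 (1.06%) in replicate 1, against 4.21% of all genes, and 0 of 94 in replicate 2, against 4.38%. In THLE-2 EZH2 it was 0 of 94 in replicate 1, against 5.92%, and 1 of 94 (1.06%) in replicate 2, against 6.54%. No KRTAP gene had a peak in both replicates of HepG2 JARID2, THLE-2 JARID2 or THLE-2 EZH2, where 0.165%, 0.356% and 4.88% of all genes did. At the shares of HepG2 JARID2 replicate 2 and of JARID2 in both replicates, fewer than 1 of any 94 genes would be counted, so a count of 0 there says nothing particular to the KRTAP genes. KRTAP5-10 was the only member counted in any of these 6 libraries at 2 kb. With a window of 5 kb, HepG2 JARID2 replicate 1 counted 2 genes (KRTAP10-11 and KRTAP12-4) and THLE-2 JARID2 replicate 1 counted 3 (KRTAP5-10, KRTAP21-3 and KRTAP24-1). The shares of all genes at 5 kb were not computed, so these 2 counts have no background beside them. Because KRTAP genes are short, their windows are smaller than those of other genes (median 4828 bp against 8002 bp). Per base, however, the order was the same: 0% of KRTAP window bases were covered in HepG2 JARID2 replicate 1 against 2.93% in other genes, and 0% and 0.0890% in the EZH2 replicates against 2.67% and 2.79%.

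H3K27me3 reached more of the genes, and differently in each replicate. In replicate 1, 4 of 94 KRTAP genes (4.26%) carried a peak, against 7.70% of all genes. In replicate 2, 14 of 94 (14.9%) did, against 19.1% of all genes. The 4 genes of replicate 1 were among the 14 of replicate 2, so 4 of 94 (4.26%) had the mark in both replicates, against 6.75% of all genes. With a score of at least 100, only KRTAP5-10 remained in both replicates. The 14 genes of replicate 2 fell to 5 at that score, and to 9 with the peak summit inside the window. Shares of all genes at these settings were not computed. The KRTAP shares under the main 2 kb rule lie below the background in each case, and no test was made of that difference. Window bases covered were 1.74% in replicate 1 and 5.21% in replicate 2, against 2.44% and 8.02% for other genes. In all, 14 genes were counted in at least 1 of the 8 libraries and 80 in none. Of all genes, HepG2 JARID2 replicate 1 alone counted 22.5%, so their share in at least 1 library is no lower. That share was not computed. Of the 14, 10 were counted in 1 library, 3 in 2 libraries and 1 in 4 libraries.

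**Figure D2:**
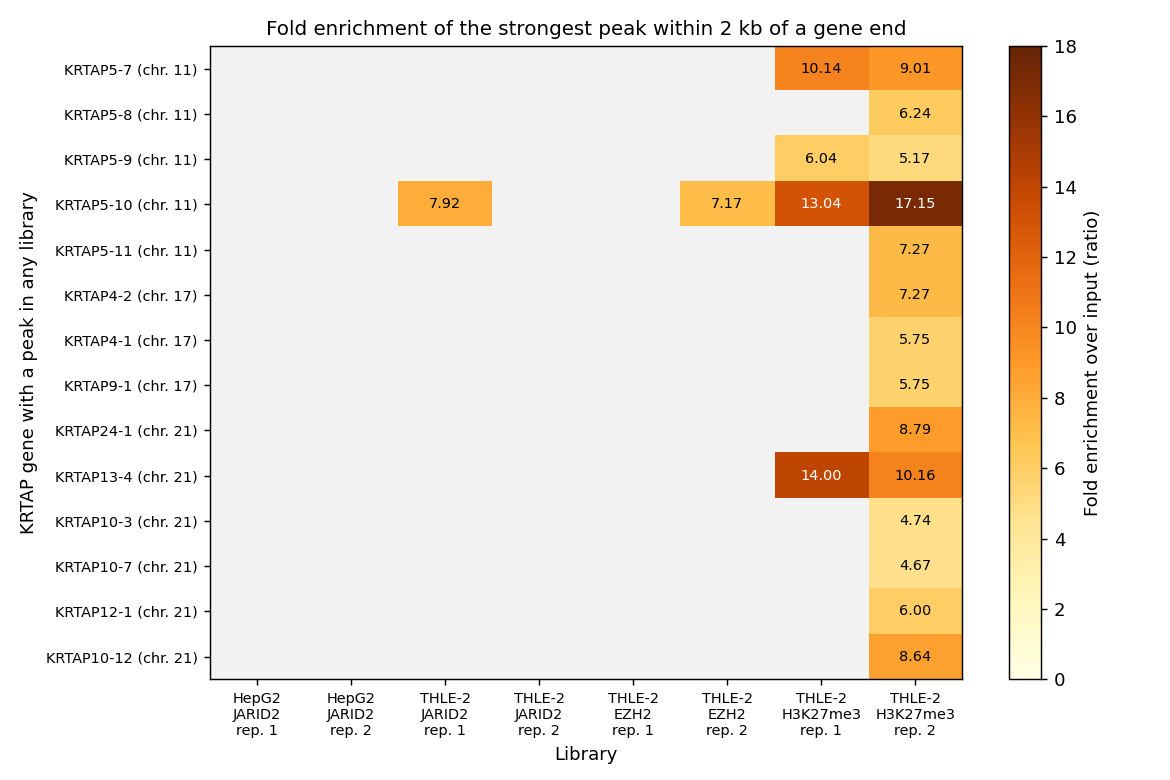
Fold enrichment over input, as the authors' MACS run gave it, of the strongest peak within 2 kb of a gene end (colour and printed value, ratio) for the 14 KRTAP genes with any peak (rows) in the 8 libraries (columns); grey marks no peak. The filled cells are 18 H3K27me3 values and 1 value each in JARID2 and EZH2 of THLE-2, both at KRTAP5-10.

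By protein class, the H3K27me3 counts are given beside the shares of all genes, 7.70% in replicate 1 and 19.1% in replicate 2. Among the 32 genes of the ultrahigh-sulfur families (KRTAP4, 5, 9 and 17), 3 were called in replicate 1 and 8 in replicate 2, of which 5 lie in the second chromosome 11 cluster. Among the 39 genes of the high-sulfur families the counts were 1 and 6. None of the 22 high glycine-tyrosine genes (families 6, 7, 8, 19, 20, 21 and 22), all of them in the first chromosome 21 cluster, was called in any library. Differences between the classes were not tested. By numbered family, 7 of 26 had a called member, and 19 families with 42 genes in all had none. The share of all genes called in at least 1 library was not computed. Counts over any library are therefore not read as particular to a class or family. The same family could be split: all 5 KRTAP5 genes of the second chromosome 11 cluster had an H3K27me3 peak in replicate 2, and none of the 6 KRTAP5 genes of the first cluster had a peak in any library.

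The second chromosome 11 cluster was the most heavily marked. H3K27me3 peaks covered 30.5% of its 55.6 kb in replicate 1 and 32.1% in replicate 2, with 7 peaks in each. The 500 kb before it were covered to 5.79% and 11.8%, the 500 kb after it to 0.0788% and 0.379%, and the rest of chromosome 11 to 4.60% and 7.16%. The replicates marked largely the same bases: 15521 bases were shared, which is 91.6% of those in replicate 1 and 87.1% of those in replicate 2. Both replicates left a stretch of 12.6 kb at chr11:71550459-71563104, between KRTAP5-9 and KRTAP5-10, without a peak.

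Within that cluster the genes differed in strength of the calls. At KRTAP5-10, fold enrichment of H3K27me3 over input was 13.04 in replicate 1 and 17.15 in replicate 2. The replicate 1 peak, chr11:71563105-71564674, ended 889 bp from the low-coordinate end of the gene and ranked above all but 9.45% of the peaks in its list. The replicate 2 peak, chr11:71563137-71564579, ended 984 bp away and ranked above all but 1.06%. It was also here that the single JARID2 and the single EZH2 call lay. The THLE-2 JARID2 replicate 1 peak, chr11:71563077-71563756, rested on 14 tags with a fold enrichment of 7.92 and a false discovery rate of 15.63%, and ended 1807 bp from KRTAP5-10. The THLE-2 EZH2 replicate 2 peak, chr11:71563333-71563957, rested on 26 tags with a fold enrichment of 7.17 and a false discovery rate of 100%, and ended 1606 bp from the gene. All of these intervals overlapped, while JARID2 replicate 2, EZH2 replicate 1 and both HepG2 libraries had no peak anywhere in the cluster. Both single calls were lost with a 1 kb window and with a score of at least 100, and each rests on 1 library.

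The other KRTAP5 genes of the cluster carried H3K27me3 without JARID2 or EZH2. KRTAP5-7 had fold enrichments of 10.14 and 9.01 in replicates 1 and 2, from peaks at its low-coordinate side and over the gene. KRTAP5-9 was covered from end to end by a broad peak in each replicate, chr11:71544731-71550458 (5728 bp) and chr11:71544947-71550384 (5438 bp), and all 250 bases of the window printed above lay inside both. Its fold enrichments of 6.04 and 5.17 were low for these lists, with 97.9% and 92.8% of peaks higher. Fold enrichment is a single value for a whole peak, so it is not a measure of how much of the gene is marked. KRTAP5-8 and KRTAP5-11 were called in replicate 2 only, with fold enrichments of 6.24 and 7.27. The nearest replicate 1 peak to KRTAP5-8, chr11:71541233-71544509, lay 2024 bp from the gene, just outside the window, and had a fold enrichment of 17.38. A further domain between KRTAP5-10 and KRTAP5-11 was called in both replicates, beginning 4888 and 4895 bp from KRTAP5-10 and so outside the gene-end windows.

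**Figure D3:**
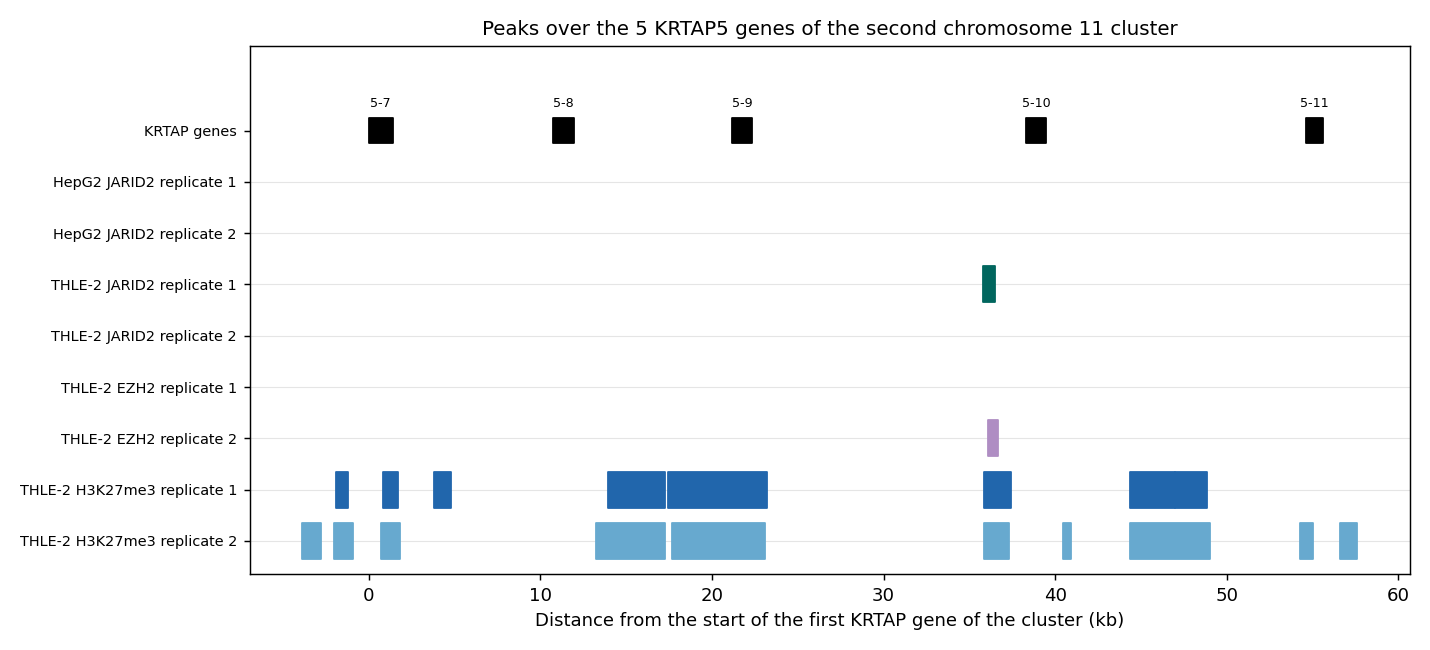
Map of the second chromosome 11 cluster: KRTAP5-7 to KRTAP5-11 (black) and the peaks of each of the 8 libraries (coloured bars), by distance from the start of KRTAP5-7 in kb. H3K27me3 peaks of both replicates recur at the same places, and the JARID2 and EZH2 rows of THLE-2 each hold 1 peak, beside KRTAP5-10.

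The first chromosome 11 cluster held no peak. Its 6 KRTAP5 genes, KRTAP5-1 to KRTAP5-6, lay in a stretch without a peak in all 8 libraries. For H3K27me3 that stretch was 422 kb long in replicate 1 and 347 kb in replicate 2. For EZH2 it was 744 and 742 kb, for THLE-2 JARID2 308 and 2436 kb, and for HepG2 JARID2 replicate 1 320 kb. Lists with few peaks leave long stretches anywhere, and the usual distance between peaks was not computed. The lengths given here and below are therefore not read as particular to a cluster. The 500 kb before the cluster were covered by H3K27me3 to 0.193% and 4.46%, the 500 kb after it to 5.51% and 11.1%, and the rest of chromosome 11 to 4.60% and 7.16%.

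The chromosome 17 cluster, which has the most members, was almost free of peaks. Its 322 kb held no peak in the 6 JARID2 and EZH2 libraries or in H3K27me3 replicate 1. H3K27me3 replicate 2 covered 1.16% of it with 2 peaks. One of these, chr17:41174859-41176427, counted for KRTAP4-2 with a fold enrichment of 7.27. The other, chr17:41186804-41188957, lay between KRTAP4-1 and KRTAP9-1 and counted for both with a fold enrichment of 5.75. These 3 genes encode ultrahigh-sulfur proteins. The 21 genes from KRTAP3-3 to KRTAP4-3 lay in a stretch of 181 kb with no H3K27me3 peak in either replicate. In contrast, the 500 kb before the cluster, which hold epithelial keratin genes, were covered to 17.4% and 18% by 45 and 58 peaks, and the 500 kb after it to 6.25% and 12.3%. The rest of chromosome 17 was covered to 3.76% and 6.70%, so both sides were themselves covered more than their chromosome. The last H3K27me3 peak of replicate 1 before the cluster ended 186 kb from KRTAP3-3.

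In the first chromosome 21 cluster, KRTAP13-4 stood alone. This gene for a high-sulfur protein had a peak over its body and promoter in both H3K27me3 replicates, chr21:30430032-30430971 with a fold enrichment of 14.00 and chr21:30429989-30430915 with 10.16. The peaks covered 188 and 231 bases of the 250-base window printed above. In replicate 1 only 6.06% of peaks were higher, and in replicate 2 22.9% were. The annotated long non-coding RNA gene LOC105372772 spans KRTAP13-4 and other genes of the cluster, so the peak cannot be assigned to 1 transcript. KRTAP24-1, also a high-sulfur member, had a peak in replicate 2 only, chr21:30282090-30283067, with a fold enrichment of 8.79, covering 117 bases of its printed window. Across the 757 kb, H3K27me3 covered 0.273% and 0.861%, against 2.62% and 4.10% of the rest of chromosome 21. In replicates 1 and 2, the 500 kb before the cluster were covered to 0.693% and 2.95%. For the 500 kb after it the values were 1.31% and 6.48%, so in replicate 1 both flanks also lay below the rest of the chromosome. The 23 genes from KRTAP15-1 to KRTAP11-1 lay in a stretch of 561 kb with no H3K27me3 peak in either replicate. The replicates shared 884 bases here, 42.7% of replicate 1 and 13.6% of replicate 2, and all of them were at KRTAP13-4.

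Isolated JARID2 and EZH2 peaks occurred between the genes of this cluster and matched no other library. HepG2 JARID2 replicate 2 had a peak 5.19 kb from KRTAP15-1 with a fold enrichment of 10.21. THLE-2 JARID2 replicate 1 had peaks 28.8 kb from KRTAP20-3 and 3.01 kb from KRTAP21-3, both with a fold enrichment of 8.07. THLE-2 EZH2 replicate 2 had a peak 13.1 kb from KRTAP21-3 with a fold enrichment of 6.62. In EZH2 replicate 1 the cluster was part of a stretch of 10801 kb without a peak.

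The second chromosome 21 cluster had H3K27me3 towards its KRTAP10-12 end. Coverage was 3.53% in replicate 1 and 9.49% in replicate 2, against 2.62% and 4.10% of the rest of the chromosome. The 500 kb before it were covered to 0.279% and 4.11% and the 500 kb after it to 1.08% and 10.9%, so in replicate 2 the side after the cluster was covered more than the cluster. Replicate 1 had 2 peaks, both beside KRTAP12-1 but 2.89 and 3.86 kb away and so not counted for it. Of the replicate 1 bases, 97.7% were also covered in replicate 2, where they made up 36.3%. Replicate 2 added peaks at KRTAP10-12 (fold enrichment 8.64), KRTAP12-1 (6.0), KRTAP10-3 (4.74) and KRTAP10-7 (4.67), 4 genes for high-sulfur proteins. At KRTAP10-12 a peak of 2779 bp over the promoter was followed by a peak of 7727 bp with 2005 tags that ran on beyond the gene, and all 250 bases of its printed window were covered. Replicate 1 had no peak at any of these 4 genes.

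EZH2 stopped short of these genes. In both EZH2 replicates a broad peak at the high-coordinate end of TSPEAR, chr21:44705922-44713689 with a fold enrichment of 5.49 and chr21:44706024-44713545 with 4.69, began 7.88 and 7.98 kb after KRTAP10-12. H3K27me3 replicate 2 had a peak at the same place, chr21:44705912-44716524, with a fold enrichment of 6.30. H3K27me3 replicate 1 had no peak there. Before the TSPEAR peak, EZH2 had no peak for 2485 kb in replicate 1 and 3196 kb in replicate 2, a stretch that held the whole KRTAP10 and KRTAP12 cluster. The usual distance between EZH2 peaks was not computed. The only JARID2 peak inside the cluster was in HepG2 replicate 1, 2.69 kb from KRTAP12-4, with a fold enrichment of 13.66 from 10 tags.

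**Figure D4:**
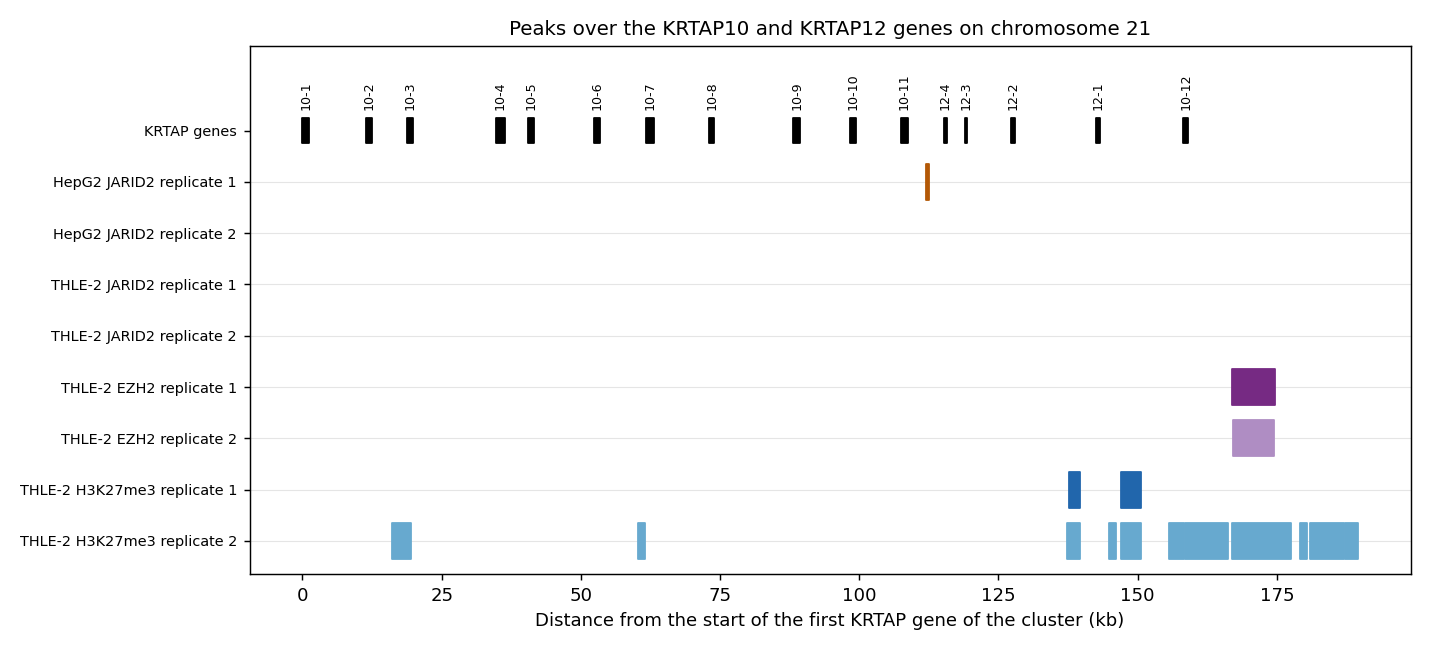
Map of the second chromosome 21 cluster with the 16 KRTAP10 and KRTAP12 genes (black, labelled without the prefix KRTAP) and the peaks of each library (coloured bars), by distance from the start of KRTAP10-1 in kb. H3K27me3 lies mostly from just before KRTAP12-1 onwards, and the EZH2 peaks of both replicates begin after KRTAP10-12.

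Summed over the 5 clusters, the share of bases under a peak was 0.0394% and 0.0371% in HepG2 JARID2, 0.141% and 0% in THLE-2 JARID2, 0% and 0.0851% in THLE-2 EZH2, and 1.75% and 3.07% in THLE-2 H3K27me3. Group means were 0.0383% ± 0.00166, 0.0704% ± 0.0995, 0.0426% ± 0.0602 and 2.41% ± 0.931 (SD, n = 2 libraries each). Both H3K27me3 libraries thus lay above every JARID2 and EZH2 library, whereas the JARID2 and EZH2 groups overlapped. In the rest of the 3 chromosomes, H3K27me3 covered 2.62% to 4.60% in replicate 1 and 4.10% to 7.16% in replicate 2. EZH2 covered 0.198% to 0.454% and 0.179% to 0.494% there. H3K27me3 coverage above that of EZH2 is therefore not particular to the KRTAP clusters. HepG2 minus THLE-2 JARID2 was -0.0321 percentage points (exact permutation test, two-sided p = 1.0000, adjusted over 3 comparisons p = 1.0000). EZH2 minus JARID2 in THLE-2 was -0.0278 points (exact p = 1.0000, adjusted p = 1.0000). Both signs were unstable: without replicate 1 of each group these differences were 0.0371 and 0.0851 points, and with 50 kb added to each side of the clusters the second was 0.324 points. H3K27me3 minus EZH2 in THLE-2 was 2.37 points (exact p = 0.3333, adjusted p = 1.0000). With 2 libraries against 2, the smallest p is 0.3333, so no difference could pass 0.05. H3K27me3 libraries also had the most peaks, and the part of depth and peak number in this difference was not tested.

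**Figure D5:**
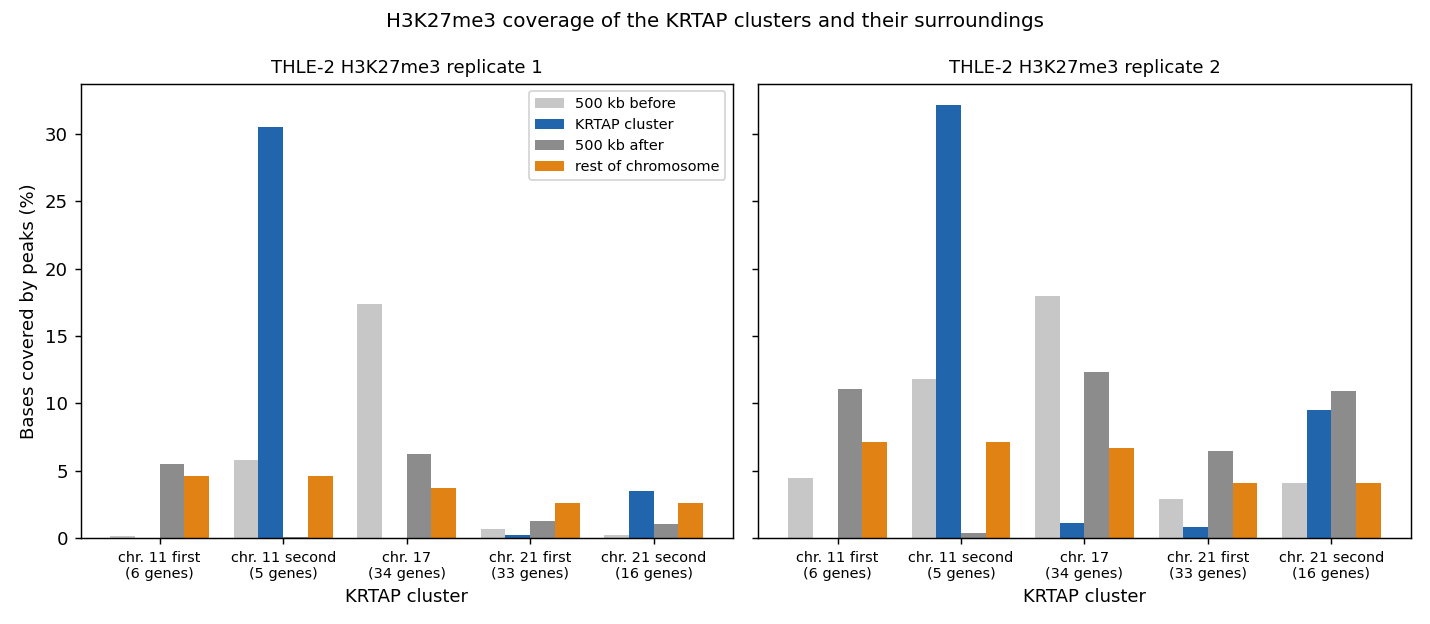
Bases covered by H3K27me3 peaks (vertical axis, %) in each KRTAP cluster (blue), in the 500 kb before and after it (light and dark grey) and in the rest of its chromosome (orange), for THLE-2 replicates 1 and 2. The second chromosome 11 cluster reaches 30.5% and 32.1%, and the first chromosome 11 cluster is at 0% in both.

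Genes that work with the KRTAP proteins in hair were described with the same rule, from lists of hair genes. Of 17 hair keratin genes, whose products form the filaments that KRTAP proteins crosslink, 1 had H3K27me3 in both replicates (5.88%, against 6.75% of all genes), namely KRT84 with fold enrichments of 8.60 and 4.41. Per replicate the counts were 1 and 4. The shares of all genes in H3K27me3 replicates 1 and 2 were 7.70% and 19.1%, which also apply to the lists below. Of 16 other type I keratin genes of the chromosome 17 locus, 8 did, the count of each replicate alone as well. These included the inner root sheath keratins KRT26 (18.35 and 11.10), KRT27 (14.00 and 19.27) and KRT28 (17.86 and 15.76), as well as KRT14 (18.83 and 4.36), a keratin of basal epithelial cells. Of 13 other genes of the hair shaft and inner root sheath, 5 did (38.5%; 5 in replicate 1 and 7 in replicate 2), among them TCHH, which encodes trichohyalin (8.20 and 8.59), and TGM3, a transglutaminase that crosslinks it (11.10 and 6.50). None of these 3 lists had a gene with EZH2 in both replicates, where 4.88% of all genes did. In single EZH2 libraries each list had at most 1, where 5.92% and 6.54% of all genes had a peak. Lists this short would hold few such genes at these shares, so these EZH2 counts say nothing particular to them.

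Of 18 regulators of the hair follicle, 12 had EZH2 in replicate 1, 10 in replicate 2 and 10 in both (55.6%, against 4.88% of all genes). For H3K27me3 the counts were 3 in replicate 1 and 10 in replicate 2, with 2 in both (11.1%). The shares of all genes were 7.70%, 19.1% and 6.75%. The count in both replicates was limited by the count of replicate 1. HOXC13, MSX1, MSX2, LEF1, FOXQ1, FOXE1 and BCL11B had EZH2 in both replicates and H3K27me3 in replicate 2. Those with EZH2 included HOXC13, a transcription factor that activates hair keratin genes (7.13 and 6.37), LHX2, a factor of hair follicle stem cells (13.27 and 8.35), GATA3, needed for the inner root sheath (9.76 and 9.44), and LEF1, a partner of beta-catenin (8.28 and 8.05). The corresponding count for the KRTAP genes was 0 of 94. No gene of the 4 lists had JARID2 in both replicates of either line. Of all genes, 0.165% did in HepG2 and 0.356% in THLE-2, so this absence says nothing particular to the lists. The lists were chosen with results of these data known, and neither the counts nor their differences from the KRTAP genes or from each other were tested.

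Promoter CpG content was set beside the calls. Genes with EZH2 in both replicates had a median of 27 CpG in 694 promoters, and genes with H3K27me3 in both replicates had 6 in 1063 promoters. KRTAP promoters of genes called in H3K27me3 replicate 2 had a median of 3.50 CpG and 46.3% G and C (10 promoters), against 2.00 and 42.0% for those not called (70 promoters). The other 4 of the 14 called genes, KRTAP5-7, KRTAP5-8, KRTAP5-10 and KRTAP5-11, had no promoter entry, and these are all but 1 of the genes of the most heavily marked cluster. With 10 promoters whose likeness to each other was not measured, this is a description only.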

How the data were processed

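The authors deposited 1 MACS peak list for each of the 8 immunoprecipitated libraries. Per the submitters' processing notes, the tools were Bowtie2, cutadapt and MACS 1.4.2, and the genome was GRCh38. Each library was called singly, with its own input as background and uniquely mapped reads, per the file headers. The p-value cutoff was 1e-05, and duplicates were limited to 1 tag per position. The deposited columns are, per the file headers, a tag count per peak, a score, the fold enrichment of the peak and a false discovery rate in percent. The score is the log10 p-value multiplied by -10. The fold enrichment is a ratio over the input background, printed as MACS gave it, and was not recomputed from tag counts. Reads and coverage were not used here. Near-identical KRTAP copies can lose reads when only unique alignments are kept, which was not measured here, so a missing peak means that MACS called none.

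From these lists, peaks on chromosomes 1 to 22 and X were overlapped (at least 1 bp) with windows of 2 kb on either side of both RefSeq gene ends, since the annotation holds no strand. Clusters were runs of at least 3 KRTAP genes with gaps under 500 kb. Coverage was compared by exact permutation of libraries, two-sided, with Benjamini-Hochberg adjustment. The overlap code was tested on simulated data. Where a gene had several peaks in a list, the highest fold is printed. Protein-coding promoters used the first start listed per gene. Python 3.11.15, pandas 2.3.3, numpy 2.4.6 and scipy 1.17.1 were used. Alternatives were windows of 1 and 5 kb, a score of at least 100, summits, other cluster limits and each replicate alone. Named genes were every KRTAP gene called in both replicates of a group, the 3 with the highest fold in each library, all members in libraries with at most 5, and every cluster; the other members called are named as well, chosen after their values were seen. The members and gene lists were chosen with earlier results of these data known. Protein sequences were not used here.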

Additional observations from a re-analysis of the deposited data

How the results depend on the processing

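The count of 0 KRTAP genes in both replicates of HepG2 JARID2, a group in which 0.165% of all genes were called, was at its floor and says nothing of stability. For THLE-2 JARID2 and THLE-2 EZH2 the count with 1 replicate alone ran from 0 to 1 in each. The H3K27me3 count of 4 became 7 with a 5 kb window, 1 (KRTAP5-10) with a score of at least 100, and 4 to 14 with 1 replicate alone (14 without replicate 1). The 14 genes of replicate 2 became 5 with a score of at least 100 and 9 with the summit inside the window. Shares of all genes under these alternatives were not computed. Cluster coverage in HepG2 JARID2 of 0.0383% became 0% with a score of at least 100, 0.0356% with 250 bases on either side of the summit, 0.0431% with gaps under 100 kb and 0.0589% with 50 kb added on each side. With 50 kb added, EZH2 coverage became 0.432%, because the TSPEAR peak entered. H3K27me3 coverage became 1.12% with a score of at least 100 and 0.570% around summits. The HepG2 minus THLE-2 JARID2 difference became 0 with a score of at least 100 and ran from -0.101 to 0.0371 points with 1 replicate left out, positive without replicate 1. The EZH2 minus JARID2 difference became 0 with a score of at least 100, 0.324 points with 50 kb added (exact p = 0.3333), and ran from -0.141 to 0.0851 points with 1 replicate left out, positive without replicate 1. The H3K27me3 minus EZH2 difference stayed positive throughout. The labels share only a number between groups, and deviations of same-numbered libraries correlated at -0.017, -0.0046 and 0.042 over 19970 genes. With the replicate block the differences stayed at -0.0321, -0.0278 and 2.37 points, with exact p = 1.0000, 1.0000 and 0.5000. The last is the smallest p that 2 pairs allow in this exact test, so the block could not change a call. How depth bears on a missing peak was not tested, and 2 libraries per group cannot reach a p below 0.05.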
